A study of Mus musculus with 7 samples.

Results

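The sugar and monocarboxylate transporters of mouse glomeruli were taken by name, as measured gene symbols of the Slc2a, Slc5a and Slc16a families. These families were chosen with earlier results of these data known. Described here are 33 of the 12958 symbols measured, with 10 in Slc2a, 11 in Slc5a and 12 in Slc16a. One of them, Slc2a4rg-ps, is annotated as a unitary pseudogene and shares only the name with the carriers. RNA came from glomeruli, the filtering tufts of the kidney, which were collected with magnetic beads and sieves from male BALB-C mice aged 14 weeks. Doxycycline was given to all mice by food and drinking water, starting at 8 weeks of age and lasting 6 weeks. In the knockdown group (n = 3) the mice carried a Shroom3 siRNA transgene, and the control group (n = 4) were littermates that lacked it. No source used here gives the promoter of the transgene.

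The Slc2a family are the GLUT proteins, which let sugars down their gradient across the cell membrane. The Slc5a family are sodium-coupled carriers that pull glucose, myo-inositol, lactate and vitamins into cells against a gradient. The Slc16a family are the MCT proteins, which move lactate, pyruvate and ketone bodies together with protons, while several members carry amino acids, creatine or carnitine instead. In the kidney the sodium-coupled glucose and lactate carriers are best known from the brush border of the proximal tubule, and GLUT1 and GLUT4 are studied in podocytes and mesangial cells.

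Some facts of all libraries bear on what follows. Each library held a log2 expression value per gene, with library medians from 9.152 to 9.163. The deposited values carry no read counts, so the depth behind each value is unknown. Shroom3 itself ran from 10.80 to 10.91 in knockdown and from 10.85 to 11.36 in control libraries, and the overlapping ranges did not check the labels (log2 fold change -0.19; limma, adjusted p = 0.417). The titles of 5 libraries start with G (2 knockdown, 3 control) and those of the other 2 with CB6 (1 of each group, knockdown replicate 3 and control replicate 4). The defining markers of podocytes, glomerular endothelium and mesangium were all measured, as were those of the proximal tubule and the distal nephron. Proximal tubule markers had a log2 summed expression between 18.07 and 18.46 in knockdown and between 18.44 and 18.83 in control libraries, so tubule RNA was present in every library. Of 27 such markers, which hold no gene of the 3 families, 10 fell and 1, Pck1, rose. These calls made up 40.7% of the markers, where 3.02% of all genes passed (limma, adjusted p under 0.05). Log2 fold changes were below 0 for 25 markers, as for 5682 of all 12958 genes, and the marker median was -0.49. With title style as a covariate the call of Slc13a3 alone among the 11 called markers ended (limma, adjusted p = 0.0707). The defining markers Lrp2 (-0.21), Cubn (-0.47) and Slc34a1 (-0.35) did not pass. The part of tubule RNA in the transporter results was not tested. In bulk RNA, fewer cells of a type and less RNA per cell cannot be told apart.

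Of the 33 genes, 5 changed between the groups: Slc16a14, Slc16a4 and Slc5a2 fell and Slc5a1 and Slc5a9 rose in knockdown glomeruli. All 5 encode carriers of the Slc5a or Slc16a families, and no Slc2a gene passed. Whether the families differed was not tested. These 5 made up 15.2% of the transporter genes, where 3.02% of all genes tested passed (limma with Benjamini-Hochberg adjustment over all genes, threshold 0.05). The 2 that rose compare with 0.996% of all genes that rose, and the 3 that fell with 2.02% that fell. The knockdown libraries lay wholly on 1 side of the control libraries for 10 transporter genes (30.3%), and 18.4% of all genes did so. A two-sided exact permutation test of the single gene gave p = 0.0286, the smallest that 35 assignments of the libraries allow, for 4 of the 5 changed genes and p = 0.0571 for Slc5a2. The 5 genes had been picked by limma on the same libraries, so the permutation test adds no separate support. Log2 fold changes were positive for 17 genes and negative for 16 (7276 and 5682 over all genes). Their median was 0.02, as it was for all genes. The median size of the log2 fold change, regardless of sign, was 0.24 against 0.11 for all genes. With title style as a covariate 3 of the 5 passed (Slc16a14, Slc16a4 and Slc5a1), where 1.47% of all genes did. In the 5 libraries titled G alone none passed by limma, where 0.309% of all genes did. There 9 of the 33 had an unadjusted p under 0.05 (limma), as did 1381 of all 12958 genes.

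**Figure D1:**
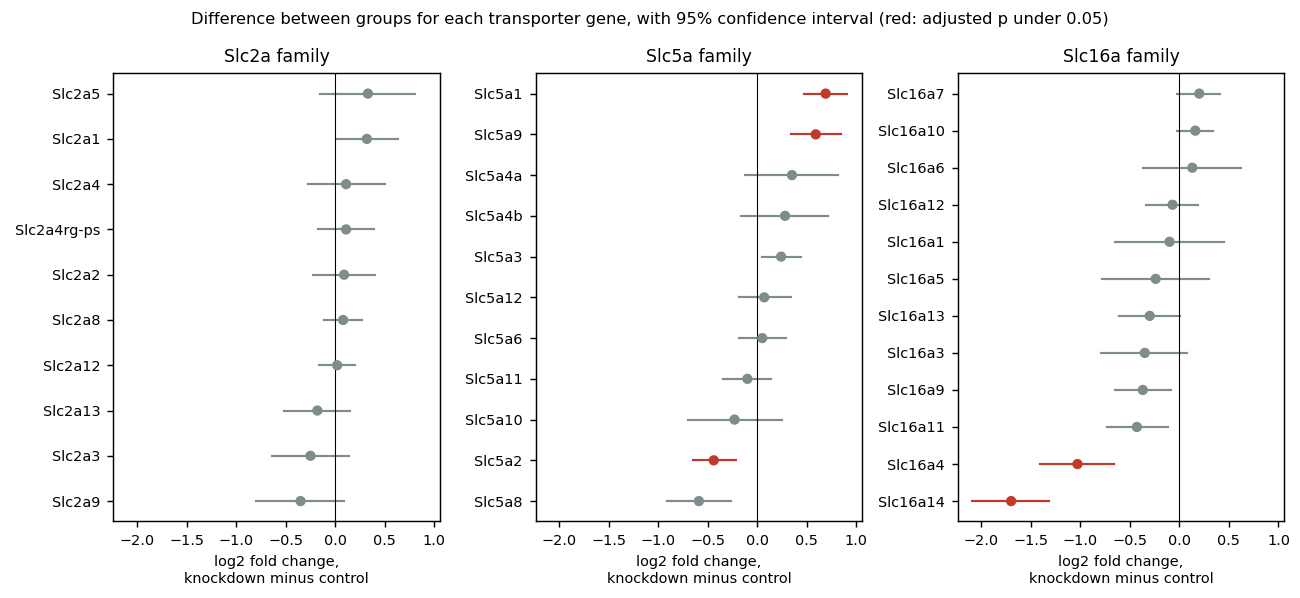
Log2 fold change of each transporter gene, knockdown minus control, in 3 panels by family. Points are limma estimates over 3 knockdown and 4 control libraries, lines are 95% confidence intervals, and red marks the 5 genes past an adjusted p of 0.05. Slc16a14 lies farthest from 0 at -1.70, while no interval of the Slc2a family is red.

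The largest change was in the Slc16a family. Slc16a14 encodes MCT14, a carrier whose substrates are not well defined. It stood at a log2 expression of 7.90, 8.44 and 8.23 in the knockdown libraries (replicates 1 to 3) and at 9.60, 10.14, 9.75 and 10.09 in the control libraries (replicates 1 to 4). The highest knockdown value was 1.16 below the lowest control value. Its log2 fold change was -1.70 (SE 0.17, 95% CI -2.09 to -1.32; limma, adjusted p = 0.0025), a level 3.26-fold lower. The difference was -1.66 within the libraries titled G and -1.87 within the CB6 pair. Slc16a14 lies on chromosome 1 (GRCm38, 84905898 to 84935134, minus strand; ENSMUSG00000026220.6) and none of its exons overlap those of another annotated gene. Each leave-one-out fit kept its call, with adjusted p (limma) up to 0.0107.

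Slc16a4, which encodes MCT5, another carrier without a settled substrate, fell as well. Knockdown libraries held 8.95, 8.43 and 8.66 and control libraries 9.60, 9.98, 9.40 and 9.86, and the groups did not overlap. The log2 fold change was -1.03 (SE 0.16; limma, adjusted p = 0.0156), with -0.97 within the libraries titled G and -1.20 within the CB6 pair. The gene is on chromosome 3 (107291230 to 107312115, plus strand; ENSMUSG00000027896.15). Without knockdown replicate 2, knockdown replicate 3 or control replicate 4 its adjusted p was 0.0749, 0.064 and 0.053 (limma) at log2 fold changes of -0.91, -1.03 and -0.98.

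Slc16a10 encodes the aromatic amino acid carrier MCT10 and stood at 8.94, 8.92 and 8.85 in knockdown and 8.70, 8.84, 8.64 and 8.76 in control libraries. It was higher in every knockdown library than in any control library but did not pass (log2 fold change 0.16, 95% CI -0.02 to 0.34; limma, adjusted p = 0.314). Slc16a11 (MCT11), studied for its link to lipid metabolism, was at 6.44, 6.44 and 6.71 in knockdown and 6.87, 6.92, 7.21 and 6.84 in control libraries. These groups did not overlap either, and the log2 fold change of -0.43 (95% CI -0.73 to -0.12) did not pass (limma, adjusted p = 0.134). Slc16a9 (MCT9), linked to carnitine transport, had values of 10.26, 9.80 and 10.29 in knockdown and 10.45, 10.63, 10.49 and 10.36 in control libraries. Here too the control libraries were all above the knockdown libraries, at a log2 fold change of -0.37 that did not pass (limma, adjusted p = 0.159).

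The classical lactate carriers of the family did not pass. Slc16a1 (MCT1), the broadly expressed lactate and pyruvate carrier, had values of 8.89, 8.97 and 8.24 in knockdown and 8.49, 9.0, 8.46 and 9.27 in control libraries. Its groups overlapped, and the difference was 0.28 within the libraries titled G but -1.02 within the CB6 pair. Slc16a7 (MCT2), a carrier with high affinity for pyruvate, was at 11.98, 12.17 and 12.15 in knockdown and 11.71, 12.08, 12.00 and 11.82 in control libraries (log2 fold change 0.20, 95% CI -0.02 to 0.41; limma, adjusted p = 0.313). Slc16a3 (MCT4), the lactate exporter of glycolytic cells, was low throughout, with means of 6.74 ± 0.16 (SD, n = 3) and 7.09 ± 0.35 (SD, n = 4). The 95% interval of the Slc16a1 difference ran from -0.65 to 0.45, a range that holds the difference of -0.44 seen for Slc5a2.

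None of the remaining Slc16a genes passed either. Slc16a12 (MCT12), a creatine carrier, was at 11.71, 11.34 and 11.42 in knockdown and 11.39, 11.79, 11.43 and 11.63 in control libraries, with groups that overlapped and a log2 fold change of -0.07. For Slc16a9, 23.5% of the exonic length also lies in exons of other annotated genes on the opposite strand. The overlap of Slc16a6 with other annotated genes, on both strands, also came to 23.5%. Slc16a13 (-0.30), Slc16a5 (-0.24), which encodes the drug carrier MCT6, and Slc16a6 (0.13), which encodes the ketone body carrier MCT7, overlapped between groups. In all, 9 of 12 Slc16a genes had log2 fold changes below 0, as did 5682 of all 12958 genes, and the family median was -0.27 beside 0.02 over all genes.

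**Figure D2:**
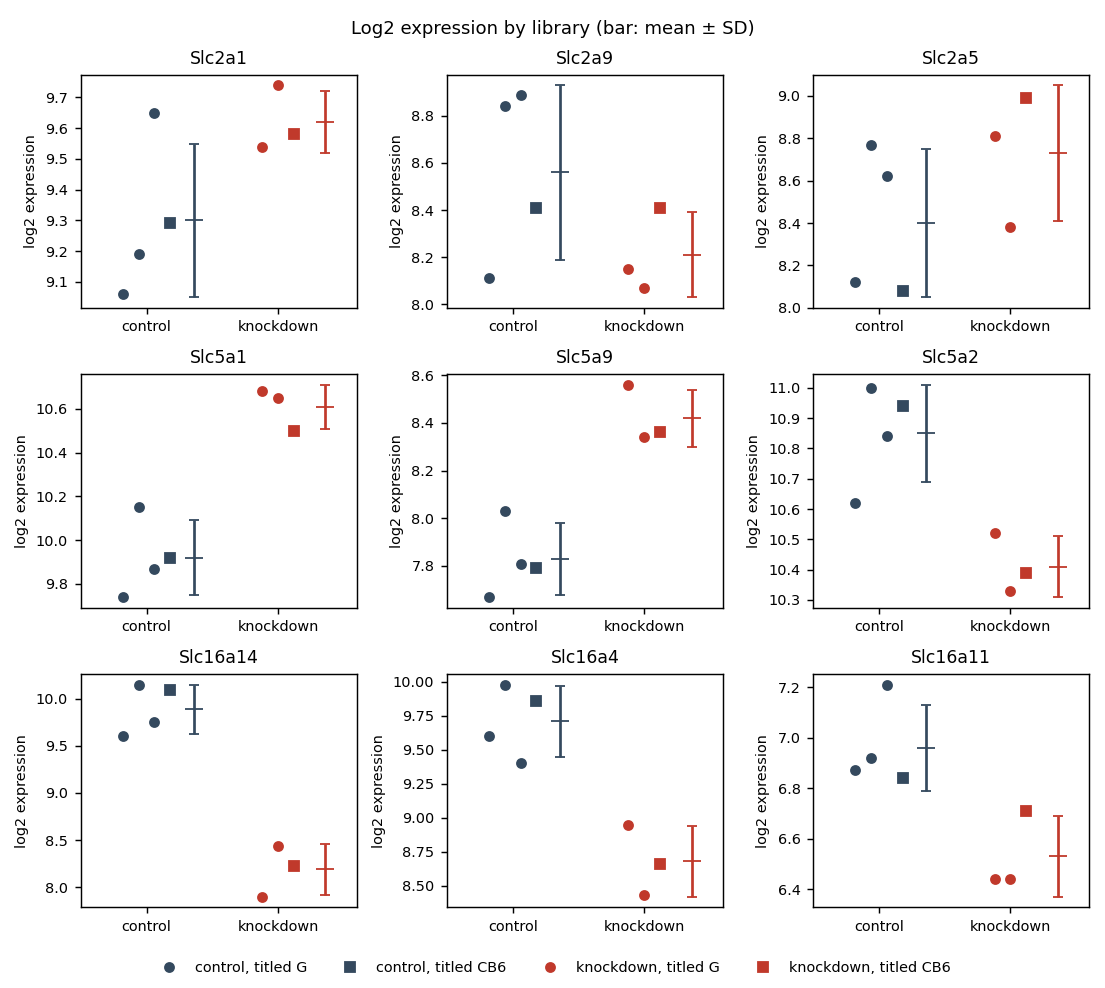
Log2 expression in each library for the 3 genes with the smallest p in each family (rows). Circles are libraries titled G and squares libraries titled CB6, dark for control (n = 4) and red for knockdown (n = 3), and bars give the mean and SD. The Slc16a and Slc5a panels show groups without overlap (Slc16a11 did not pass the test), for example Slc16a14 below 8.5 in knockdown and above 9.5 in control libraries, while the 3 Slc2a panels show overlap.

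Among the sodium-coupled glucose carriers, the 2 main kidney genes changed in opposite directions. Slc5a2 encodes SGLT2, the carrier of the early proximal tubule that reclaims most filtered glucose, and Slc5a1 encodes SGLT1, the carrier of the later segments. Slc5a1 rose: knockdown libraries held 10.68, 10.65 and 10.50 and control libraries 9.74, 10.15, 9.87 and 9.92. Every knockdown library was above every control library, by 0.35 at the closest. Slc5a1 had a log2 fold change of 0.69 (SE 0.10, 95% CI 0.47 to 0.91; limma, adjusted p = 0.00882), a level 1.61-fold higher, with 0.74 within the libraries titled G and 0.57 within the CB6 pair. Without knockdown replicate 2 the adjusted p was 0.0554 (limma) at 0.67. The gene lies on chromosome 5 (33104219 to 33162870, plus strand; ENSMUSG00000011034.6).

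Slc5a2 fell, and its call was narrow. Its values were 10.52, 10.33 and 10.39 in knockdown and 10.62, 11.00, 10.84 and 10.94 in control libraries, so that the nearest libraries of the groups were 0.1 apart. The log2 fold change was -0.44 (SE 0.09; limma, adjusted p = 0.0487), with -0.40 within the libraries titled G and -0.55 within the CB6 pair. The adjusted p (limma) lay between 0.0679 and 0.182 without knockdown replicate 1, 2 or 3 or control replicate 2, 3 or 4, and was 0.0155 without control replicate 1. Slc5a2 lies on chromosome 7 (128265657 to 128272430, plus strand; ENSMUSG00000030781.13). Exons of BC017158 on the opposite strand cover 20.6% of its exonic length, and no source used here tells whether counting used strand. BC017158 itself differed by -0.11 (SE 0.12).

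The ratio of the 2 carriers within a library does not depend on scaling between libraries. It was looked at after their values were seen. Slc5a1 minus Slc5a2 was 0.16, 0.32 and 0.11 on the log2 scale in the knockdown libraries and -0.88, -0.85, -0.97 and -1.01 in the control libraries. The groups lay far apart compared with their spreads (SD 0.11, n = 3, and 0.08, n = 4). The ratio is not corrected for length, and per kilobase of exon the mean of Slc5a2 stood above that of Slc5a1 in both groups (8.88 and 8.57 in knockdown, 9.31 and 7.88 in control glomeruli, log2). The mean ratios differed by 1.13, given without a test because the pair was chosen on its values. Slc5a2 had the sign of most proximal tubule markers and Slc5a1 the opposite sign, and the part of tubule RNA in either result was not tested.

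**Figure D3:**
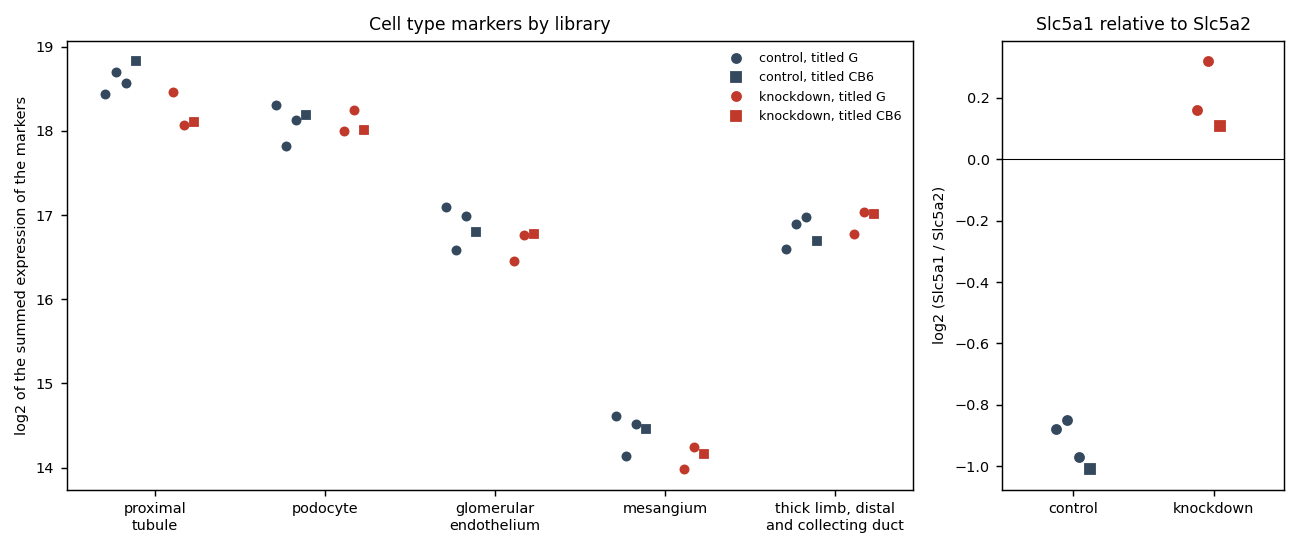
Left, log2 of the summed expression of the markers of 5 cell types, 1 point per library. Right, the log2 ratio of Slc5a1 to Slc5a2 in each library, not corrected for length, with circles for libraries titled G and squares for CB6. The proximal tubule sums overlap narrowly between groups (18.07 to 18.46 against 18.44 to 18.83). The ratio is above 0 in the 3 knockdown libraries and below 0 in the 4 control libraries. This pair was chosen after its values were seen, so the separation is not a test. Per kilobase of exon the mean of Slc5a2 is above that of Slc5a1 in both groups. The part of tubule RNA in the ratio was not tested.

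Slc5a9, which encodes SGLT4, a mannose and fructose carrier, also rose. Its values were 8.56, 8.34 and 8.36 in knockdown and 7.67, 8.03, 7.81 and 7.79 in control libraries, again with groups apart. The log2 fold change was 0.59 (SE 0.11; limma, adjusted p = 0.0308), a level 1.51-fold higher, with 0.61 within the libraries titled G and 0.57 within the CB6 pair. The call ended without knockdown replicate 1, 2 or 3 or control replicate 1, 3 or 4 (limma, adjusted p from 0.0565 to 0.108), although the log2 fold change stayed between 0.52 and 0.66 in every leave-one-out fit. Slc5a9 lies on chromosome 4 (111875375 to 111902918, minus strand; ENSMUSG00000028544.14). Slc5a10 (SGLT5), the other mannose and fructose carrier, ran from 7.84 to 8.71 in knockdown and from 8.19 to 8.76 in control libraries and did not pass (-0.23; limma, adjusted p = 0.618). Exons of Grap and Fam83g on the opposite strand cover 16.8% of the exonic length of Slc5a10. The neighbouring genes Slc5a4a and Slc5a4b, close relatives of SGLT1 described as glucose sensors or weak carriers, were low, at 6.64 ± 0.43 and 6.19 ± 0.30 (SD, n = 3) in knockdown and 6.29 ± 0.18 and 5.92 ± 0.27 (SD, n = 4) in control libraries. Reads are hard to assign between such close copies, so both values are uncertain.

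The promoters of the changed genes can be read for 3 of the 5, Slc16a14, Slc16a4 and Slc5a1, from RefSeq windows on GRCm38.p6 that span 250 bases before to 50 bases after the start of transcription. Windows were matched by symbol for 23 of the 33 genes. Slc5a2 and Slc5a9 were among the other 10. The windows lie at chr1:84935034-84935333 (Slc16a14, minus strand), chr3:107290980-107291279 (Slc16a4, plus strand) and chr5:33103969-33104268 (Slc5a1, plus strand). They are shown because Slc16a14 and Slc16a4 fell and Slc5a1 rose, and capitals mark a match to CACGTG (an E-box), TATAAA (the TATA box) or GTTAAT (the core of an HNF1 site), searched on both strands.
Slc16a14: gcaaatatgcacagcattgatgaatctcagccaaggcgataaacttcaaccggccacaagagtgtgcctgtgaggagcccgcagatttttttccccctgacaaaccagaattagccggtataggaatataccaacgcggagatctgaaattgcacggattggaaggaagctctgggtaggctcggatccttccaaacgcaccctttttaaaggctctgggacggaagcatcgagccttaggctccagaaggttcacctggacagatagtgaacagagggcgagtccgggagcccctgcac
Slc16a4: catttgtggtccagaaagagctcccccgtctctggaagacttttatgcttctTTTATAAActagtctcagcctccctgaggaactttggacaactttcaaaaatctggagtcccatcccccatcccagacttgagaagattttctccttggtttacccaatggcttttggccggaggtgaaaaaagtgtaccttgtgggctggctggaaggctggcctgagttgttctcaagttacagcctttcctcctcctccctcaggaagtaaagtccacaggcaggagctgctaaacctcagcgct
Slc5a1: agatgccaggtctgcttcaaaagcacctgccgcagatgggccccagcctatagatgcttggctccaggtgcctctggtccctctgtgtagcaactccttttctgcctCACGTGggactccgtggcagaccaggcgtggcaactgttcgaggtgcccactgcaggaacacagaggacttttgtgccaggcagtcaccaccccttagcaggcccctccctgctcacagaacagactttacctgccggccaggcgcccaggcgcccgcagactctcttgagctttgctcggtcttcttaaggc

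The window of Slc5a1 held 1 E-box, 143 bases before the start, a motif found in 7.15% of all 32851 windows. In Slc16a4 the TATAAA letters occurred on both strands in 1 overlapping stretch, 198 to 191 bases before the start, and 13.6% of all windows held this motif. The Slc16a14 window had none of the 3 motifs. The HNF1 core, which occurred in 7.1% of all windows, was in none of the 3. The windows of Slc16a14 and Slc16a4 therefore shared none of the 3 motifs, and Slc5a2, which also fell, had no window to compare. GC content was 52.3%, 49.3% and 60.3% in Slc16a14, Slc16a4 and Slc5a1, beside a median of 52.7% over all windows.

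Neither of the sodium-coupled lactate carriers passed. Slc5a8 (SMCT1), the high-affinity form, was at 10.37, 9.66 and 10.11 in knockdown and at 10.62, 10.63, 10.65 and 10.65 in control libraries. The control libraries were nearly identical and all knockdown libraries lay below them, but the gene did not pass (log2 fold change -0.59, 95% CI -0.91 to -0.27; limma, adjusted p = 0.0637). Leaving out knockdown replicate 1 brought it past the threshold (adjusted p = 0.0235, limma; log2 fold change -0.75). Slc5a12 (SMCT2), the low-affinity form, had values of 14.65, 14.51 and 14.32 in knockdown and 14.32, 14.56, 14.22 and 14.57 in control libraries. Its groups overlapped, with a log2 fold change of 0.07 (95% CI -0.19 to 0.34; limma, adjusted p = 0.787). Whether the 2 carriers differed in their response was not tested.

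Carriers of myo-inositol and vitamins made up the remaining Slc5a genes. Slc5a3 (SMIT1), which imports the osmolyte myo-inositol, stood at 13.83, 13.92 and 13.91 in knockdown and 13.81, 13.48, 13.71 and 13.59 in control libraries. The groups did not overlap but came within 0.02 of each other, and the gene did not pass (log2 fold change 0.24, 95% CI 0.05 to 0.44; limma, adjusted p = 0.176). Exons of Mrps6 and Gm49711 on the same strand cover 2.91% of its exonic length, and Mrps6 itself differed by 0.26 (SE 0.08). Slc5a11 (SMIT2), the carrier related to Slc5a3, had means of 7.77 ± 0.10 (SD, n = 3) and 7.87 ± 0.13 (SD, n = 4). Slc5a6, the sodium-dependent multivitamin carrier for biotin and pantothenate, was at 9.31 ± 0.13 (SD, n = 3) and 9.25 ± 0.16 (SD, n = 4). Over the family 7 of 11 genes had a positive log2 fold change, as did 7276 of all 12958 genes. The family median was 0.07 beside 0.02 over all genes.

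None of the 10 Slc2a genes passed by limma, where 3.02% of all genes did. Of the 10 genes 1, Slc2a1, had an unadjusted p under 0.05 (limma), as did 2390 of all 12958 genes. Slc2a1 encodes GLUT1, the basal glucose carrier of most cells. It stood at 9.54, 9.74 and 9.58 in knockdown and at 9.06, 9.19, 9.65 and 9.29 in control libraries, where control replicate 3 reached into the knockdown range. Its log2 fold change was 0.32 (95% CI 0.01 to 0.63; limma, adjusted p = 0.25), with 0.33 within the libraries titled G and 0.30 within the CB6 pair. Slc2a2 (GLUT2), the basolateral carrier of the proximal tubule, had values of 11.81, 11.41 and 11.60 in knockdown and 11.37, 11.86, 11.34 and 11.51 in control libraries. Its groups overlapped, at a log2 fold change of 0.09 (95% CI -0.22 to 0.40). Slc2a4 (GLUT4), the insulin-responsive carrier, ran from 8.75 to 9.23 in knockdown and from 8.62 to 9.23 in control libraries.

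Sugar carriers with other substrates also overlapped between groups. Slc2a9 (GLUT9), a urate carrier, was at 8.15, 8.07 and 8.41 in knockdown and 8.11, 8.84, 8.89 and 8.41 in control libraries (log2 fold change -0.35, 95% CI -0.80 to 0.09), a difference of -0.50 within the libraries titled G and of -0.0033 within the CB6 pair. Slc2a5 (GLUT5), the fructose carrier, had 8.81, 8.38 and 8.99 in knockdown and 8.12, 8.77, 8.62 and 8.08 in control libraries (0.33, 95% CI -0.15 to 0.81). Slc2a12, a GLUT4-like carrier, was among the steadiest, at 10.05, 9.98 and 9.97 against 10.09, 10.03, 9.80 and 10. Of the remaining genes the intracellular carrier Slc2a8 differed by 0.08, the proton-coupled myo-inositol carrier Slc2a13 by -0.18, the neuronal-type carrier Slc2a3 by -0.25 and the pseudogene Slc2a4rg-ps by 0.11. The family median was 0.09 beside 0.02 over all genes.

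Levels of different genes could be compared only after dividing by length, because the table values rose with exonic length. Over 12701 genes with a GENCODE length the correlation of mean log2 value and log2 length was 0.299 (Pearson, across genes, which are not independent), and the median rose from 8.26 in the shortest 10% of genes to 10.53 in the longest 10%. Per kilobase of exon, Slc5a12 had the highest control level of the 33 genes, 12.39 ± 0.18 (SD, n = 4) on the log2 scale, above 99.5% of all genes with a length. Slc5a3 followed at 10.20 ± 0.15, and Slc16a12 (9.50 ± 0.18) and Slc5a2 (9.31 ± 0.16) came next, neighbours whose spreads overlap. Slc2a2 led its family at 9.0 ± 0.24. At the lower end were Slc16a3 (4.68 ± 0.35), Slc5a4b (4.24 ± 0.27) and Slc2a3 (3.38 ± 0.21). In this order of 33 genes in control glomeruli the changed genes ranked 4 (Slc5a2), 9 (Slc16a14, 8.15), 11 (Slc5a1, 7.88), 12 (Slc16a4, 7.76) and 29 (Slc5a9, 5.45). Tubule RNA was present in every library, and its part in these levels was not tested.

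**Figure D4:**
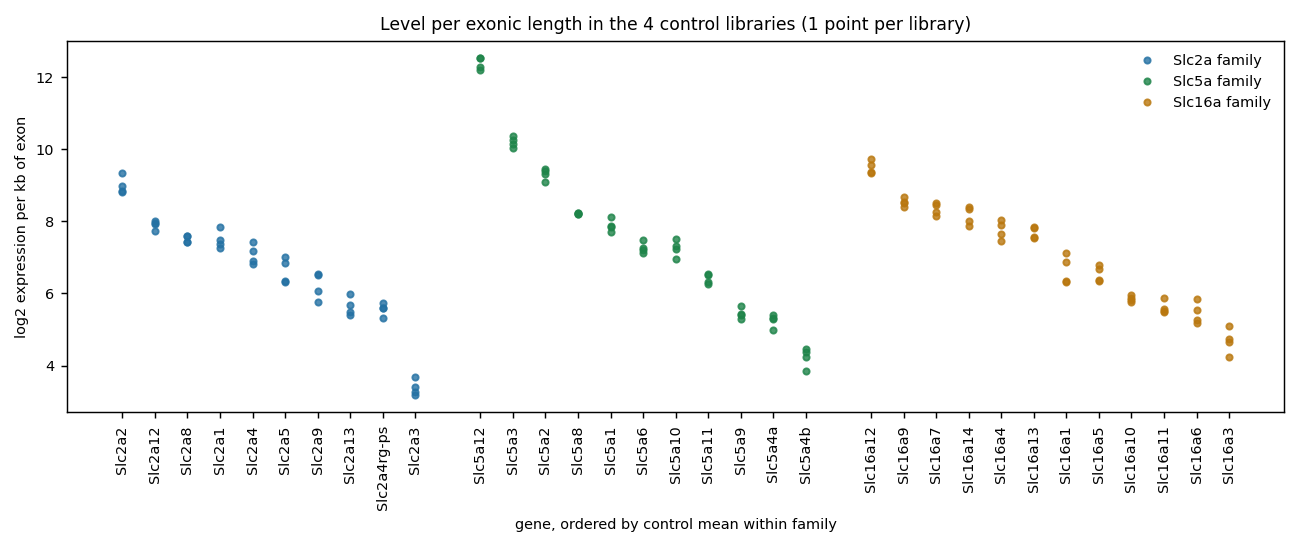
Control level of each transporter gene as log2 expression per kilobase of exon, 1 point for each of 4 control libraries, ordered within each family by the mean. The points of Slc5a12 lie above 12, those of Slc2a3 below 4, and most neighbours overlap. The part of tubule RNA in these levels was not tested.

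Enzymes and partners that work with these carriers mostly did not pass. As background, 3.02% of all genes passed limma, and 5682 of 12958 had a log2 fold change below 0. Ldhd, the mitochondrial enzyme that oxidises D-lactate, fell, from 11.04, 11.33, 11.62 and 11.58 in control to 10.46, 10.17 and 10.25 in knockdown libraries (log2 fold change -1.10, SE 0.14; limma, adjusted p = 0.00587). It was the single gene of 18 for lactate, pyruvate and ketone metabolism that passed, and the list median was -0.11. Of the 18 genes 5 had an unadjusted p under 0.05 (limma), as did 2390 of all 12958 genes. Of 9 transcription factors known for these carriers, Ppargc1a, a coactivator of oxidative metabolism, rose (0.37, SE 0.07; limma, adjusted p = 0.034), and its call ended with title style as a covariate (adjusted p = 0.0802, limma). In the urate handling list 3 of 7 genes fell, the exchanger Slc22a12 (-2.26), the organic anion carrier Slc22a6 (-1.17) and the phosphate and urate carrier Slc17a3 (-1.0), and all 7 had a negative log2 fold change. Slc22a12 and Slc22a6 are also in the proximal tubule list.

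As background for the next lists, 2390 of all 12958 genes had an unadjusted p under 0.05 (limma). None of the 18 genes of hexose phosphorylation and glycolysis passed limma (2 had an unadjusted p under 0.05), and the list median was 0.07. The same held for 6 partner proteins of the carriers (0 with an unadjusted p under 0.05), 12 genes of carrier traffic and abundance (5), 8 of fructose, polyol and galactose metabolism (2), 8 of myo-inositol and osmolyte handling (3) and 3 of thyroid hormone handling (0). Within these lists the smallest p belonged to Pkm (0.33) and Pgk1 (-0.17) of glycolysis, Pdzk1 (-0.28), a scaffold of brush border carriers, and Emb (0.21), a chaperone of MCT proteins, Igf1r (0.19) and Tbc1d1 (-0.16) of carrier traffic, Tkfc (-0.23) and Khk (0.22) of fructose metabolism, Nfat5 (0.22) and Impa1 (0.21) of osmolyte handling, and Crym (-0.26) and Thrb (0.11) of thyroid hormone handling, all as log2 fold changes.

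Markers of other cell types were read in the same way, beside 3.02% of all genes that passed and 2390 of 12958 with an unadjusted p under 0.05 (limma). Of 12 podocyte markers 1, Magi2, fell (-0.70), with a list median of -0.24, and the summed log2 level was 18.00 to 18.25 in knockdown and 17.82 to 18.31 in control libraries. None of 10 glomerular endothelial markers passed limma (4 had an unadjusted p under 0.05), with a median of -0.23 and sums of 16.45 to 16.77 against 16.58 to 17.10. Of 7 mesangial markers 2, Sfrp2 (-0.98) and Serpine2 (-0.39), fell, with sums of 13.98 to 14.24 against 14.14 to 14.61. Of 11 markers of the thick limb, distal nephron and collecting duct 2, Slc4a1 (0.86) and Atp6v1g3 (0.56), rose, with sums of 16.77 to 17.04 against 16.60 to 16.98. Log2 fold changes were below 0 for 10 of 12 podocyte, 10 of 10 endothelial, 6 of 7 mesangial and 3 of these 11 markers. The same held for 2 of 5 immune and 1 of 4 smooth muscle and renin cell markers, and for 5682 of all 12958 genes. None of 5 immune markers (0 with an unadjusted p under 0.05) or 4 smooth muscle and renin cell markers (1) passed limma. Of 6 red cell markers 1, Alas2, was measured, and it fell (-0.54), while none of 5 fat cell markers was measured. With title style as a covariate the calls of Sfrp2, Serpine2, Atp6v1g3 and Alas2 ended (limma, adjusted p = 0.0644, 0.0967, 0.087 and 0.124). The part of these cell types in the transporter results was not tested.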

How the data were processed

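RNA sequencing of glomeruli from 7 mice gave 1 deposited table per library, in which the authors list gene symbols with a value on a log scale, taken here as log2. No source states the base, and another base would rescale every fold change by a constant. Reads were aligned with BWA to mm10, per the submitters' processing notes. The counting method, strand use and normalization were not given in the sources used here.

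Groups came from the genotype label, and nothing says more of replicates than that they were separate animals. One symbol of the 34 that fit the family names is not reported here and enters no count of transporter genes. The transporter genes and all lists were chosen with earlier results of these data known. Knockdown was set against control with limma 3.58.1 (R 4.3.3, intensity trend, Benjamini-Hochberg adjustment, threshold 0.05) over all 12958 symbols, and a filter that asked for values over the table minimum in 3 or more libraries removed 0. All 33 members passed that filter. Exact permutation tests were two-sided by the size of the difference. The fit was checked on made-up data with known changes and independent noise in each library. That check does not cover deviations tied between libraries, such as those of the CB6 pair. Positions and exonic lengths came from GENCODE M21 (GRCm38, the build of mm10), 1-based. Levels were compared between genes only per kilobase of exon.

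The deviations of the CB6 libraries from their group means mirrored each other across genes (r = -0.958). If the authors removed a batch difference before deposit, p-values without title style are too small. A shared pattern of library offsets in 108 genes (within 0.003) touched 0 members.

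Named in full were the members past the threshold and, per family, the 3 with the smallest p and the 3 with the highest control mean. Values in every library were also given for Slc16a1, Slc16a10 and Slc5a8, which this rule did not pick. From each list came its members past the threshold (up to 6) or else the 2 with the smallest p. Alternatives were quantile normalization, equal library medians, no filter, the upper 75% of genes by mean, no intensity trend, a covariate for title style, the libraries titled G alone, leaving out each library, and thresholds of 0.1 and 0.01.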

Additional observations from a re-analysis of the deposited data

How the results depend on the processing

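The count of 5 transporter genes was 4 to 6 under quantile normalization, equal library medians, no filter, the upper 75% of genes and no intensity trend, and 3 with title style as a covariate. It was 6 at a threshold of 0.1, 2 at 0.01, 0 in the libraries titled G alone and 1 to 4 with 1 library left out. Leaving out knockdown replicate 2 gave 1, knockdown replicate 3 or control replicate 4 gave 2, and control replicate 3 gave 3. Over all genes the count of 391 became 191 with title style, 40 in the libraries titled G alone, 846 at a threshold of 0.1, 124 at 0.01 and 134 to 480 with 1 library left out. Fewer libraries enter the fit of those titled G, and why counts fell with title style was not tested. The 5 genes past the threshold had the same sign under all 14 other fits.

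Signs turned only for genes that did not pass. In the libraries titled G alone the log2 fold change was 0.28 for Slc16a1, -0.09 for Slc16a6, -0.09 for Slc2a4, -0.02 for Slc5a4b and -0.07 for Slc5a6, and the Slc5a median was -0.02. With 1 library left out the ranges were -0.24 to 0.13 for Slc16a1, -0.18 to 0.0015 for Slc16a12, -0.04 to 0.06 for Slc2a12, -0.01 to 0.20 for Slc2a2, -0.0055 to 0.24 for Slc2a4, -0.0032 to 0.16 for Slc5a12 and -0.02 to 0.13 for Slc5a6. The cause was not tested. The tables give no depth, so low genes such as Slc2a3 and Slc5a4b have unknown counting error.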
